A study of Homo sapiens with 4 samples.

Results

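Transcripts of 10 genes of the tight junction were measured in MCF10AT cells, out of 58233 genes counted. The genes were taken from a list of names that was chosen with earlier results of these data known. They are the claudins CLDN1, CLDN4, CLDN7, CLDN8, CLDN12 and CLDN23, occludin (OCLN), tricellulin (MARVELD2) and the scaffolds TJP1 and TJP3. MCF10AT is a human mammary epithelial line transformed by HRasG12V, which every library carries. The 4 RNA-seq libraries form 2 groups of 2: a genotype labelled Bromo+/-, whose name the labels do not spell out, and a non-target control. Per the labels' protocols, all cells grew in DMEM/F12 with insulin, hydrocortisone, cholera toxin, epidermal growth factor, donor horse serum, penicillin and streptomycin. Stable knockdowns are described as made with shRNA lentivirus, polybrene and puromycin, and the labels of these 4 samples do not say whether they went through that step. The names of the 2 Bromo+/- count columns share a number, as do those of the controls. Both libraries of a group may therefore come from a single clone, and the p-values then rest on a spread between libraries that may be technical.

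Tight junctions seal the space between neighbouring epithelial cells near their apical surface. Claudins span the membrane, and their extracellular loops join across the cell gap into strands that set which ions and solutes pass. Occludin and tricellulin are membrane proteins of the MARVEL family. Tricellulin gathers where 3 cells meet, and occludin lies along the strands. ZO proteins, encoded by the TJP genes, are cytoplasmic scaffolds whose PDZ domains bind the tails of most claudins and link them to actin. In mammary ducts these seals separate the lumen from the tissue beneath.

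The 10 genes were lower in every Bromo+/- library than in every control library, and all 10 passed an adjusted p of 0.05 (edgeR quasi-likelihood test over 13179 genes). Of all genes tested, 27.1% were lower past that threshold and 26.4% were higher, which is 3570 and 3485 genes. Bromo+/- libraries lay below both controls without overlap for 37.5% of all genes tested. With no scaling beyond library size, 2794 genes were lower and 4433 higher past the threshold, and all 10 junction genes were still lower. The fall was deep for CLDN7, OCLN, CLDN4, TJP3, CLDN1 and MARVELD2, and shallow for TJP1 and CLDN12. For CLDN8, OCLN and TJP3 only the control libraries reached the filter on low counts, so these genes were tested only through the group in which they were higher. The other 7 reached the filter in both groups. Their median log2 fold change of Bromo+/- over control was -2.30, against 0.01 for all genes tested. Of these 7, CLDN7, CLDN4, CLDN1 and MARVELD2 were at least 4-fold lower, as were 1.90% of all 11861 genes that reached the filter in both groups and 3.77% of all genes tested, counting those past the threshold. In bulk RNA, fewer cells with a transcript and less of it per cell cannot be told apart.

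**Figure D1:**
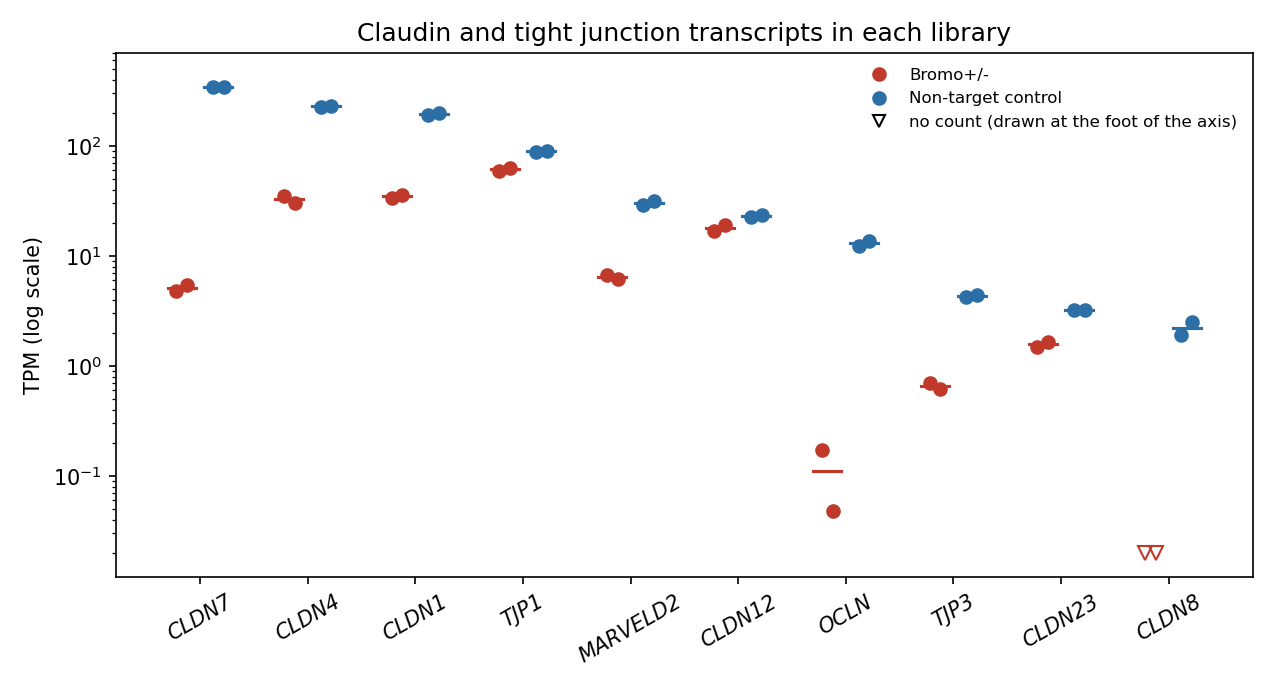
Level of each gene in each library, in TPM (transcript counts per length, scaled to the same sum in each library) on a log axis, with Bromo+/- libraries in red left of control libraries in blue; points are libraries and short lines are group means. The Bromo+/- points lie below the control points for all 10 genes, by a wide gap for CLDN7 and OCLN and a narrow one for CLDN12 and TJP1; open triangles mark CLDN8 libraries without a count.

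Facts of the whole data set frame these values. The Bromo+/- libraries held 11975396 and 10953756 counts and the control libraries 10835237 and 11884715. EP300, the acetyltransferase gene named in the study's title, was slightly higher. It stood at 121 and 126 CPM (counts scaled for library size and composition) in Bromo+/- libraries, against 106 and 111 CPM in controls (log2 fold change 0.19, SE 0.06, adjusted p = 0.00701 in edgeR). It did not pass in DESeq2 (adjusted p = 0.123) or in edgeR without control replicate 1 (adjusted p = 0.162). The labels do not say what Bromo+/- alters, so the total for EP300 does not check them. Of 11 markers of mammary epithelial cells 10 were tested and all 10 were lower, against 27.1% of all genes tested. Of these 10, TP63 and KRT14 reached the filter in controls only, and ITGB4 was lower by little (log2 fold change -0.24, SE 0.05). The summed level of the 11 markers was 2138 to 2189 CPM in Bromo+/- libraries and 10961 to 11261 CPM in controls. KRT5, KRT8, KRT17 and KRT18 made up most of that sum in every library. KRT14, a basal keratin, had no count in Bromo+/- libraries. Of 13 mesenchymal markers 7 were tested and all 7 were higher, against 26.4% of all genes tested. Of these 7, DCN reached the filter in Bromo+/- only. LUM and COL3A1 had no count in any library. The summed level of the 13 was 5893 to 6061 CPM in Bromo+/- libraries against 1814 to 1929 CPM in controls. FN1 and VIM made up most of that sum in every library, at 3927 and 1703 CPM in Bromo+/- replicate 1. The part of this wider shift in the junction results was not tested. Endothelial markers VWF, EMCN and ERG and the leukocyte marker CD3E had no count in any library. The summed level of 8 endothelial markers was 6.64 to 8.07 CPM in Bromo+/- libraries and 16.3 to 19.2 CPM in controls, and that of 8 leukocyte markers 4.52 to 5.13 CPM against 13.1 to 14.4 CPM. Of each of these lists 2 markers were tested, of which 1 endothelial and 2 leukocyte markers were lower, against 27.1% of all genes tested.

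Stretches around every E-box found before a start of the junction genes are printed here, as the sequence feature that was searched for. The E-box searched was CAGGTG, on both strands (CAGGTG or CACCTG), the letters bound by repressors of epithelial genes in the ZEB and SNAIL families. RefSeq windows of the 250 bases before a start (GRCh38.p14) were found for 8 of the 10 genes, 14 windows in all. CLDN8 and CLDN23 had no window and were not searched. Of all 35116 windows, 17.5% hold at least 1 E-box, and 0.122% hold at least 4. Capitals mark the E-box, and each stretch runs 5′ to 3′ on the strand of its gene.
CLDN7, chr17:7262637-7262662, minus strand: tcttcctcctCACCTGggcaaggagg
CLDN7, chr17:7262598-7262623, minus strand: acttccggttCAGGTGagtgtccctt
CLDN7, chr17:7262479-7262504, minus strand: tatactCAGGTGcgcccCACCTGtcc
OCLN, chr5:69492504-69492529, plus strand: atccgagtttCAGGTGaattggtcac
OCLN, chr5:69492647-69492672, plus strand: taggacgcagCAGGTGggactcgcgg
TJP3, chr19:3721720-3721736, plus strand: ggaagaggggCAGGTGc
TJP1, chr15:29969122-29969147, minus strand: ggccggcgcgCAGGTGgcccggcctc

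The CLDN7 window that ends at the start 7262478 holds 4 E-boxes, the first bases of which lie 174, 135, 20 and 9 bases before the start. That window lies wholly inside annotated exons of longer CLDN7 transcripts, as does the first OCLN window inside those of OCLN, while the TJP1 window with an E-box lies outside the annotated span of its gene. The window at the other CLDN7 start holds none. Each of the OCLN windows holds 1, as does 1 of the TJP3 windows and 1 of the 4 TJP1 windows. The windows of CLDN1, CLDN4, CLDN12 and MARVELD2 hold none. The CLDN4 window and the first TJP3 window, which is also without an E-box, lie wholly inside annotated exons of their own genes too. A match of letters is a description of the sequence, not a shown binding site, and binding was not measured.

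**Figure D2:**
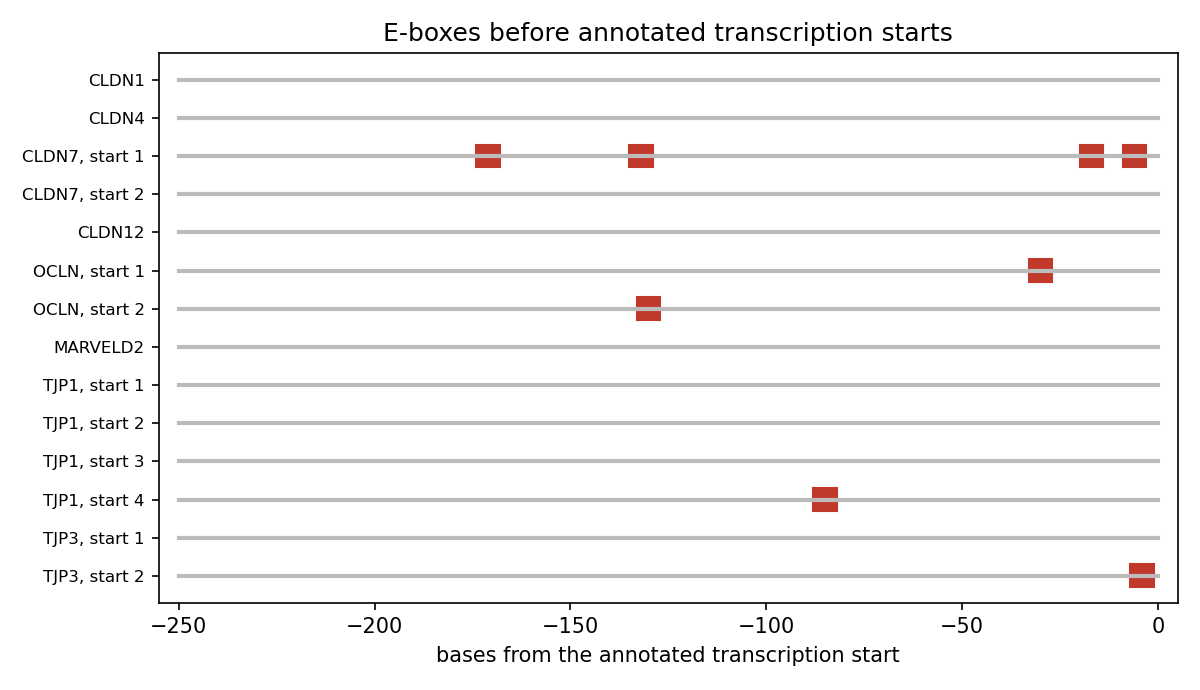
Position of each E-box (red block, 6 bases wide) in the 14 windows of 250 bases before an annotated transcription start, in bases from the start; grey lines are the windows, and starts of 1 gene are numbered by coordinate. The first CLDN7 window holds 4 E-boxes, while those of CLDN1, CLDN4, CLDN12 and MARVELD2 hold none. CLDN8 and CLDN23 had no window.

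CLDN7, a claudin of epithelia that also lies along the lateral membrane and binds EPCAM, had the highest level per length of the claudins in control cells and was nearly lost in Bromo+/- cells. It stood at 3.34 and 3.72 CPM in Bromo+/- libraries, against 249 and 245 CPM in controls. These are 83 counts against 5435, and the groups lie far apart. The log2 fold change was -6.13 (SE 0.16), which is 69.8-fold lower, at adjusted p = 3.55e-150 (edgeR). CLDN7 lies on chromosome 17 from 7259903 to 7263983 (GRCh38, minus strand). Its exons share 38 bases with ELP5 on the other strand, which rose by 0.65 on the log2 scale (SE 0.08), and 269 bases with a gene without counts. The library kit keeps strand, but how reads of shared bases were assigned was not stated in the labels.

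CLDN4 and CLDN1, both barrier-forming claudins, were the other abundant members of the family in controls. CLDN4 lies on chromosome 7 (73799542 to 73832693, plus strand) and CLDN1 on chromosome 3 (190305701 to 190322475, minus strand). CLDN4 stood at 46.1 and 39.2 CPM in Bromo+/- libraries, against 310 and 308 CPM in controls, and was 7.23-fold lower (log2 fold change -2.85, SE 0.07, adjusted p = 8.98e-117 in edgeR). CLDN1, which mice need to keep water in their skin, stood at 34.3 and 35.6 CPM in Bromo+/- libraries, against 201 and 208 CPM in controls. It was 5.85-fold lower (log2 fold change -2.55, SE 0.07, adjusted p = 1.84e-101 in edgeR). The libraries of each group lay close together for CLDN1. For CLDN4 the Bromo+/- libraries lay further apart for their level (SD 4.88 CPM at a mean of 42.6 CPM). The gap between groups was many times the spread within groups for both genes.

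CLDN12, a claudin whose tail lacks the PDZ-binding motif of most family members, lies on chromosome 7 (90383721 to 90513402, plus strand) and had the smallest fold change of the 10. It stood at 31.8 and 34.7 CPM in Bromo+/- libraries, against 44.5 and 44.7 CPM in controls. The log2 fold change of -0.43 (SE 0.09) is a fall to 74.5% of the control level, past the threshold in edgeR (adjusted p = 4.10e-06). Its exons share 347 bases with GTPBP10 and 201 bases with CDK14 on the same strand. Neither of these genes passed the threshold, at adjusted p = 0.772 and 0.112 in the same edgeR test.

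CLDN8 (chromosome 21, 30214006 to 30216073, minus strand) and CLDN23 (chromosome 8, 8701938 to 8704106, plus strand) were rare. CLDN8, a claudin of tight epithelia such as the collecting duct, had 0 counts in both Bromo+/- libraries and 12 and 17 counts in the controls. Set against 3 counts for the whole Bromo+/- group, it was at least 10.3-fold lower (adjusted p = 2.93e-09, edgeR). With each library taken singly, a count of 0 allows up to 0.251 and 0.274 counts per 1000000. CLDN23 had 11 and 11 counts in Bromo+/- libraries, against 21 and 23 in controls. Its log2 fold change was -1.09 (SE 0.38), with adjusted p = 0.00828 in edgeR. CLDN23 did not pass in DESeq2 (adjusted p = 0.237). It also did not pass in edgeR without Bromo+/- replicate 1 (adjusted p = 0.0745), without control replicate 1 (0.0587) and without control replicate 2 (0.067).

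Among the MARVEL proteins, OCLN (chromosome 5, 69492292 to 69558104, plus strand) was nearly gone. It had 4 and 1 counts in Bromo+/- libraries, against 250 and 306 in controls, or 0.207 ± 0.168 against 25.2 ± 1.83 CPM (SD, n = 2 each). The log2 fold change was -6.82 (SE 0.66, adjusted p = 6.48e-69 in edgeR). The few Bromo+/- counts make its size imprecise: it was -7.98 without Bromo+/- replicate 1 and -6.23 without Bromo+/- replicate 2. A pseudogene named for OCLN, OCLNP1, had no count in any library. MARVELD2 (chromosome 5, 69415112 to 69444330, plus strand) stood at 9.13 and 8.15 CPM in Bromo+/- libraries, against 41.1 and 44.2 CPM in controls, 4.92-fold lower (log2 fold change -2.30, SE 0.12, adjusted p = 6.16e-54 in edgeR). The 2 genes are neighbours on chromosome 5, 47961 bases apart, with no tested gene between them. RAD17, a DNA damage checkpoint gene 310 bases before MARVELD2, did not pass the threshold (log2 fold change 0.05, SE 0.10).

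Both scaffolds among the 10 genes were lower, TJP1 by little and TJP3 by much. TJP1 (chromosome 15, 29699367 to 29968865, minus strand), which encodes ZO-1, stood at 184 and 195 CPM in Bromo+/- libraries, against 289 and 289 CPM in controls. Its log2 fold change of -0.61 (SE 0.05) is a fall to 65.5% of the control level, at adjusted p = 3.58e-23 (edgeR). TJP3 (chromosome 19, 3708109 to 3750813, plus strand), which encodes ZO-3, had 10 and 8 counts in Bromo+/- libraries, against 54 and 61 in controls, and was 6.75-fold lower (log2 fold change -2.75, SE 0.38, adjusted p = 1.27e-15 in edgeR).

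Per length, the order of the 10 genes differed between the groups. In Bromo+/- libraries TJP1 led with a mean of 61.2 TPM, followed by CLDN1 (34.7 TPM), CLDN4 (32.9), CLDN12 (17.9), MARVELD2 (6.41), CLDN7 (5.16), CLDN23 (1.57) and TJP3 (0.657). OCLN and CLDN8 were last, at or near the floor of 3 counts, and cannot be ordered at this depth. In controls CLDN7 led with 345 TPM, followed by CLDN4 (229), CLDN1 (195), TJP1 (89.5), MARVELD2 (30.4), CLDN12 (23.1), OCLN (12.2 and 13.8 in the 2 libraries), TJP3 (4.31), CLDN23 (3.21) and CLDN8 (2.21). In Bromo+/- libraries the ranges of CLDN1 and CLDN4 overlapped. All other neighbours in either order were separate in these 2 libraries a group, apart from OCLN and CLDN8 in Bromo+/-.

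The summed claudin level was lower and its makeup differed. Over 24 claudin genes, the 6 named above and 18 others, the summed level was 99.2 and 99.1 TPM in Bromo+/- libraries and 798 and 813 TPM in controls. CLDN7 made up 5.20% ± 0.47 of that sum in Bromo+/- libraries and 42.9% ± 0.44 in controls (SD, n = 2 each). CLDN12 made up 18.1% ± 1.39 in Bromo+/- libraries and 2.87% ± 0.01 in controls. CLDN1 made up 35.0% ± 1.42 against 24.2% ± 0.56, and CLDN4 33.2% ± 3.33 against 28.5% ± 0.12. The shares of CLDN12, CLDN1 and CLDN4 were thus larger in both Bromo+/- libraries than in both control libraries although the levels of these genes were lower. No test was run on the shares.

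**Figure D3:**
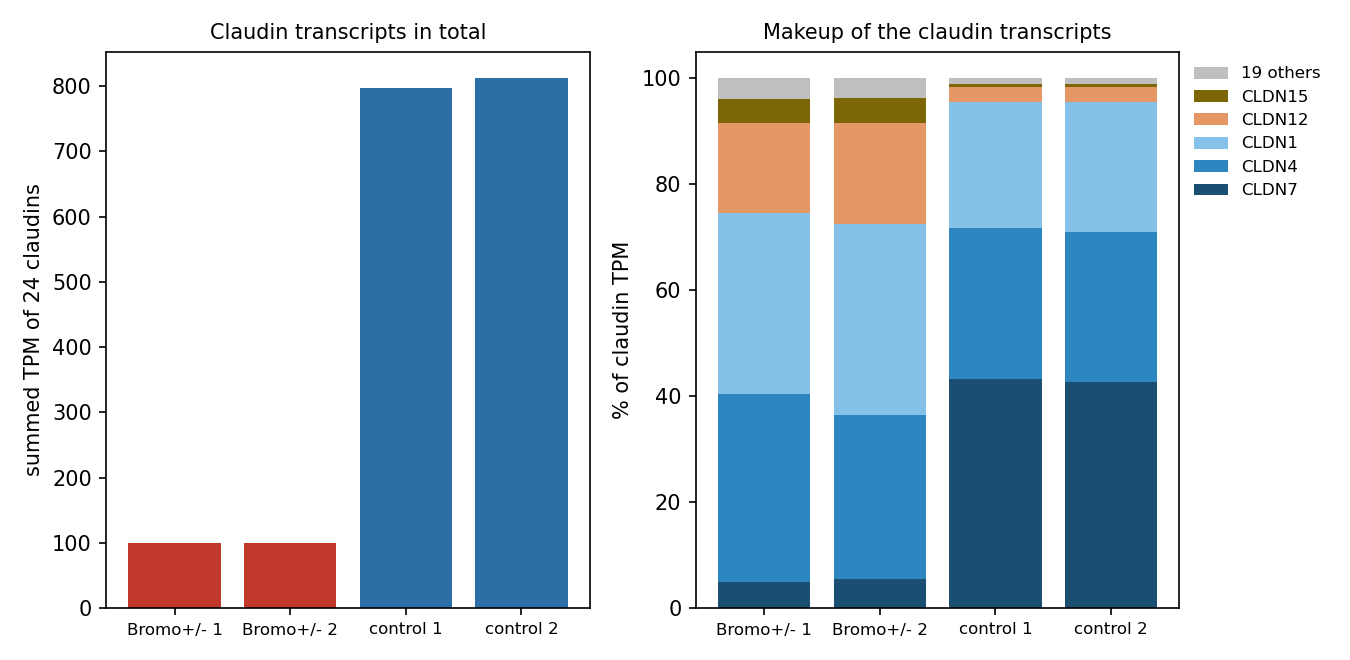
Left, summed level of 24 claudin genes in TPM in each library, with Bromo+/- libraries in red and controls in blue; right, the percentage of that sum from each claudin. Bromo+/- libraries hold about 99 TPM of claudin transcripts, against 798 and 813 TPM in controls, and CLDN7 is a narrow band in Bromo+/- libraries, against the widest band in controls.

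The other claudins had few counts in both groups. Of the 18 other claudin genes 1 had enough counts to be tested. This was CLDN15, a pore-forming claudin of the intestine, at 3.61 ± 0.03 CPM in Bromo+/- libraries and 3.18 ± 0.22 CPM in controls (SD, n = 2 each), which did not pass the threshold (log2 fold change 0.18, SE 0.25). Of the 24 claudins, 14 had 3 counts or fewer in every library. All exon bases of CLDN22 and 46.1% of those of CLDN10 overlap a gene on the other strand, and whether reads there were assigned to either gene was not stated. CLDN9 had 0 and 1 counts in Bromo+/- libraries, against 7 and 11 in controls, so that control exceeded Bromo+/- 19.2-fold per scaled count (95% exact binomial interval 3.04 to 802, counting error only). CLDN18 had 9 and 6 counts in Bromo+/- libraries, against 3 and 4 in controls, and CLDN20 6 and 4 against 4 and 4. CLDN9, CLDN18 and CLDN20 were too rare for the test and were picked out after their values were seen.

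Membrane partners of the junction moved both ways. Of 13 other membrane proteins 9 were tested, of which 6 were lower, 2 higher and 1 not past the threshold. That is 66.7% lower and 22.2% higher, against 27.1% and 26.4% of all genes tested. MARVELD3, CRB3 and BVES reached the filter in controls only and ILDR2 in Bromo+/- only. Of the 5 that reached it in both groups, 3 were lower and 1 higher. The higher one, MARVELD1, did not pass in DESeq2 or without either control library, and BVES did not pass in DESeq2. LSR, the angulin that recruits tricellulin to cell corners, stood at 43.8 ± 2.35 CPM in Bromo+/- libraries and 192 ± 2.90 CPM in controls (log2 fold change -2.13, SE 0.07). F11R, the junctional adhesion molecule JAM-A, stood at 27.8 ± 0.91 CPM in Bromo+/- libraries and 110 ± 0.11 CPM in controls (-1.98, SE 0.08). MARVELD3, the third MARVEL protein of the junction, had 3 and 7 counts in Bromo+/- libraries, against 244 and 302 in controls. CRB3, the apical determinant Crumbs3, had 0 and 2 counts against 129 and 162, a control level 156-fold that of Bromo+/- (95% exact binomial interval 42.7 to 1291). CXADR, the coxsackie and adenovirus receptor, fell as well (-2.18, SE 0.29). ILDR2, an angulin, was higher, with 22 and 21 counts in Bromo+/- libraries and 2 and 5 in controls (2.48, SE 0.59). Exons of MARVELD3 and CRB3 overlap another gene on the other strand, and those of F11R one on the same strand that had at most 1 count per library.

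In the cytoplasmic plaque genes moved both ways. Of 24 other plaque and adaptor genes 22 were tested, of which 13 were lower, 8 higher and 1 not past the threshold. That is 59.1% lower and 36.4% higher, against 27.1% and 26.4% of all genes tested. Of the 8 higher genes, MAGI1, SYMPK and ARHGAP17 did not pass in DESeq2. The median log2 fold change of the 22 was -0.34. CGN, which encodes cingulin, stood at 1.44 ± 0.28 CPM in Bromo+/- libraries and 43.3 ± 0.55 CPM in controls (log2 fold change -4.90, SE 0.26). PATJ, a multi-PDZ adaptor of the Crumbs complex, fell by 1.87 (SE 0.08) and AFDN, which encodes afadin, by 1.29 (SE 0.06) on the log2 scale. MPDZ, a multi-PDZ protein close to PATJ, went the other way, at 57.3 ± 0.59 CPM in Bromo+/- libraries and 34.9 ± 1.66 CPM in controls (0.71, SE 0.08). AMOTL1, an angiomotin relative, fell by 0.96 on the log2 scale (SE 0.06). AMOT, angiomotin itself, had 18 and 19 counts in Bromo+/- libraries and 0 in controls, which is at least 11.5-fold higher when 3 counts are set for the control group. AMOT reached the filter in Bromo+/- only and was picked out after its values were seen.

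**Figure D4:**
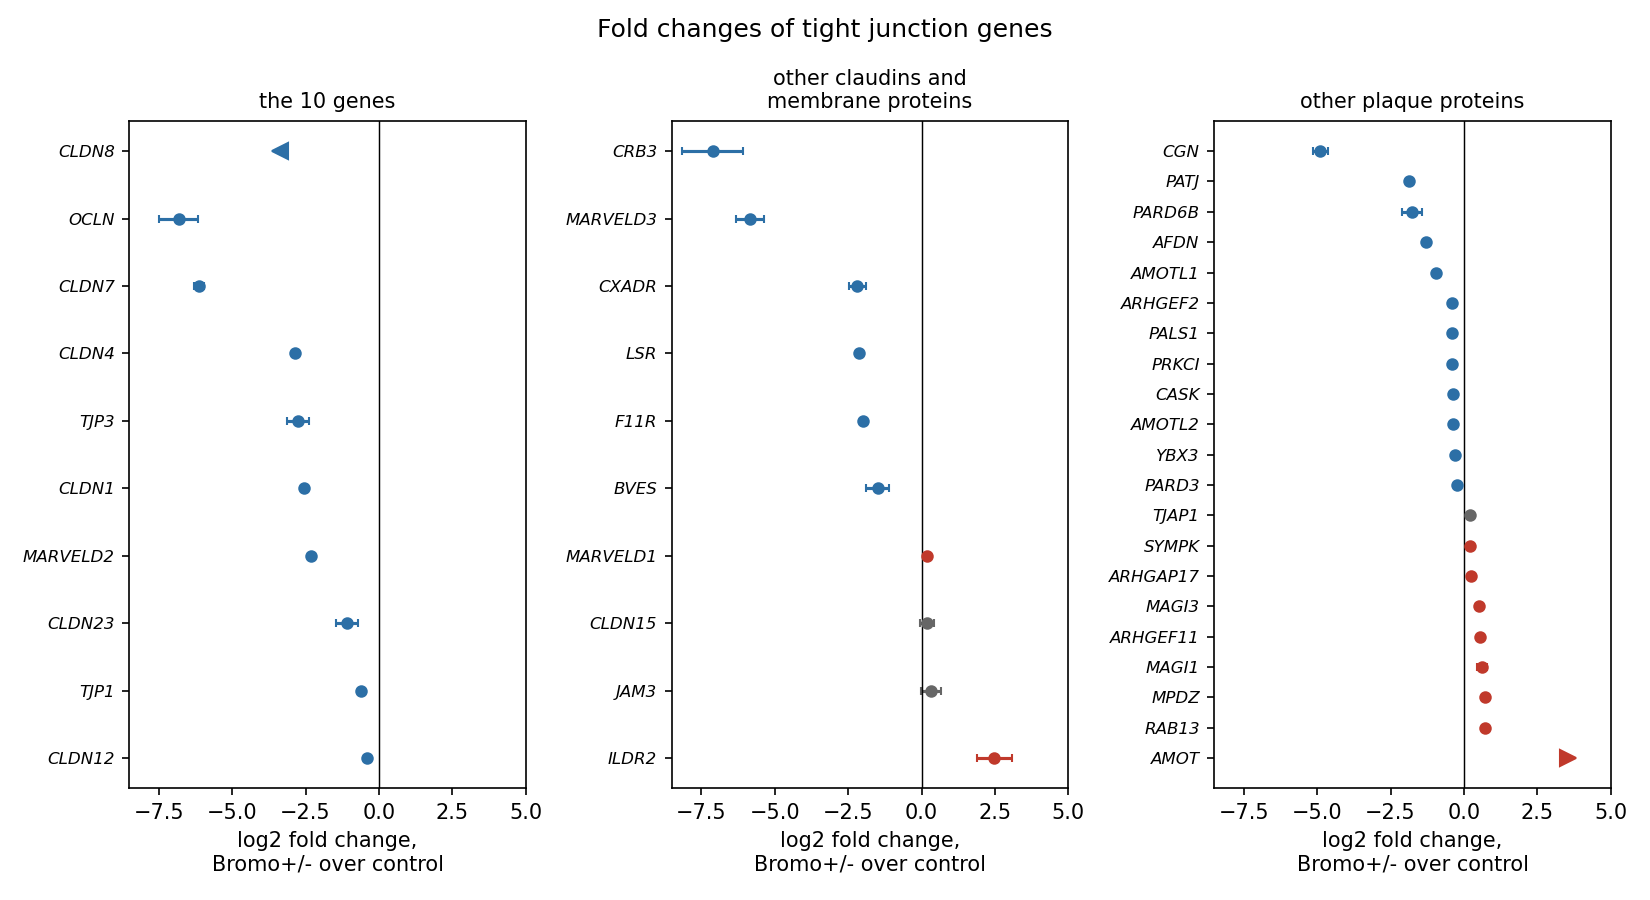
Log2 fold change of Bromo+/- over control for the 10 genes (left), 10 other claudin and membrane genes (middle) and 21 plaque genes (right); bars are the standard error, blue is lower and red higher past an adjusted p of 0.05, grey did not pass, and triangles are bounds for genes without a count in a group. All 10 genes on the left are below 0, while the plaque genes drawn have 12 blue and 8 red points.

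Transcription factors known to repress or activate junction genes are given beside the junction genes. Of 18 on a list 16 were tested, of which 10 were lower, 3 higher and 3 not past the threshold. That is 62.5% lower and 18.75% higher, against 27.1% and 26.4% of all genes tested. Of the 10 lower ones, ELF3, TP63, OVOL1 and OVOL2 reached the filter in controls only. The repressors ZEB1 and ZEB2 stood at 27.2 ± 1.42 and 30.4 ± 1.67 CPM in Bromo+/- libraries, against 2.74 ± 0.45 and 1.91 ± 0.01 CPM in controls (SD, n = 2 each). SNAI1 and SNAI2 did not pass the threshold, with log2 fold changes of -0.44 (SE 0.23) and -0.12 (SE 0.09). GRHL2, an activator of claudin and cadherin genes, stood at 1.32 ± 0.26 CPM in Bromo+/- libraries and 64.2 ± 4.64 CPM in controls. OVOL1 had no count in Bromo+/- libraries and 68 and 72 counts in controls, and OVOL2 had 3 and 4 counts against 140 and 132. Whether these factors act on the junction genes was not tested.

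The 5 genes whose profile over the 4 libraries lay nearest to the mean profile of the 10 were GALNT3, FTLP14, PPP1R14C, KRT5 and ATP12A. Likeness was the Euclidean distance between centred log2 CPM values, with the equivalent of 2 counts added before the log. With 2 groups it mostly ranks genes by the fold change of these values. GALNT3, a Golgi enzyme that starts O-glycans, had a log2 fold change of -2.77 (SE 0.09). KRT5, a basal keratin, had -2.77 (SE 0.05), and PPP1R14C, a phosphatase inhibitor, -2.79 (SE 0.11). The pseudogene FTLP14 and the proton pump gene ATP12A had no count in Bromo+/- libraries and 10 to 12 per control library. Both reached the filter in controls only. Their place among the 5 depends on the 2 added counts.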

How the data were processed

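Reads per Ensembl gene were deposited by the authors as raw counts. The submitters' processing notes name STAR, featureCounts 1.5.2 and GRCh38. Not given in the sources used here are the release of the annotation, the handling of multiply mapped reads and whether strand was used. The deposited table also gives each gene's exon length, from which TPM were computed. Columns were matched to samples by name, Br to Bromo+/- and WT to the only other group, the non-target control.

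The test was that of edgeR 4.0.16 under R 4.3.3: filterByExpr (13179 genes kept, minimum count 10), trimmed-mean scaling (factors 1.03, 1.03, 0.968 and 0.975), robust quasi-likelihood fit without covariates, and p-values adjusted after Benjamini-Hochberg across the genes kept, with a threshold of 0.05. Standard errors come from the fitted model. Replicates differed by more than sampling noise (chi-square per degree of freedom 2.58 in Bromo+/-, 1.61 in controls). Totals of 10835237 to 11975396 put 3 counts at 0.251 to 0.277 per 1000000. Floors and intervals cover counting error only. Fold bounds set against 3 counts take the counts of the other group as exact. Lists for other claudins, membrane and plaque proteins, regulators and cell markers came from textbook knowledge. The genes and lists were chosen with earlier results of these data known. Named were all 10 genes, up to 6 genes per tight junction list by smallest adjusted p, 7 of the regulators, and the 5 genes of nearest profile; results that fell under this rule for 1 plaque gene are not reported here, and it is not drawn.

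On simulated counts (12914 genes kept by the filter), log2 changes of 0.5, 1 and 2 were called for 76.6%, 95.2% and 98.5% of the changed genes kept. These were 64, 63 and 65 genes, far fewer than the 7055 called in the data. Simulated spread followed the fitted trend alone, so these shares need not hold for the real libraries. Promoter windows are those of RefSeq (GRCh38.p14). Alternatives were DESeq2 1.42.0, other scalings and filters, a replicate block and leaving out each library.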

Additional observations from a re-analysis of the deposited data

How the results depend on the processing

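Of the 10 genes, 9 kept their direction and call under every alternative that tested them (other scalings, filters, the DESeq2 Wald test, the replicate block and each library left out), and CLDN23 kept its direction but lost its call under 4 of 11. Each of the 4 fits without a library leaves 1 group with a single library, which is assumed to vary like the other group. CLDN8 was not tested with at least 50 counts in total or without control replicate 2, which leave it too few counts. The count of lower genes was 8 to 10 with a library left out, and none of the 10 was higher under any alternative run. The DESeq2 Wald test called 4470 genes in all, against 7055 in edgeR, and 6 other tight junction genes higher, against 10. With each library left out, 5551 to 6641 genes passed in all, and of the other tight junction genes 18 to 20 were lower and 7 to 11 higher. Same-numbered libraries deviated with a correlation of 0.0484 and no label pairs them. The fit with the replicate number as a block called 7271 genes in all, 10 of the 10 genes lower, and 19 lower and 10 higher of the other tight junction genes. With 5 counts for OCLN and 0 for CLDN8 in Bromo+/- libraries, depth limits how deep these falls can be shown to be.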

Other observations

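Of 18 nearest tested neighbours of the junction genes that are not among the 10, 7 were lower, 3 were higher and 8 did not pass the threshold. The shares over all genes tested were 27.1% lower and 26.4% higher. The lower neighbours include both of CLDN8 (BACH1 and TIAM1, 583254 and 902342 bases away). They also include both of CLDN23 (PRAG1 and MFHAS1, 315439 and 79247 bases away). CLDN16, a claudin of the kidney whose span lies 65 bases from that of CLDN1, had 0 counts in Bromo+/- libraries and 2 and 1 in controls. CLDN3, the gene next to CLDN4 on chromosome 7, had 0 counts in Bromo+/- libraries and 1 in each control library, so of this neighbouring pair CLDN4 alone was expressed at a level that could be tested. P3H2, the nearest tested gene before CLDN1, was lower (log2 fold change -1.03, SE 0.08), while IL1RAP, the nearest one after it, did not pass the threshold (0.05, SE 0.10). On chromosome 19, PIP5K1C before TJP3 was higher (0.28, SE 0.08), and APBA3, which lies 5 bases beyond TJP3, did not pass the threshold (-0.27, SE 0.15).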
